A study of Aspergillus glaucus with 6 samples.

Results

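Genes that set apart 2 closely similar high-salt cultures of the filamentous fungus Aspergillus glaucus CCHA are described here, with their levels in the other 4 libraries of the series. One culture had been in 4 M NaCl for 84 h and the other in 3 M NaCl for 36 h. Of 5908 genes compared between them, 140 were 4-fold apart (here and below, by that factor or more), out of 8441 gene IDs in the series. The 140 genes were chosen by the fold change between these 2 libraries, and the pair itself was chosen as the most alike of the series. The differences within the pair are therefore a description, and only the levels in the other 4 libraries were not used in the choice.

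Aspergillus glaucus is a fungus known from dry, sugared and salted substrates. In fungi, high external salt lowers the water potential around the cell and brings in sodium ions. The known responses in other Aspergillus species and in yeast are signalling through a stress-activated protein kinase cascade, accumulation of glycerol and other polyols as compatible solutes, export of sodium by membrane ATPases and antiporters, and changes of the cell wall and membrane. Filamentous fungi also change their transcripts as a culture ages and as spores form.

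RNA of mycelium of 1 strain, CCHA, was sequenced after 36 h in 1 M or 3 M NaCl and after 84 h in 0 M, 1 M, 3 M or 4 M NaCl, with 1 library per condition. All cultures share the strain and the labels name no genetic change. Library totals lay between 16371771 and 18376857 counts, and between 8138 and 8282 genes had a read. Levels are given as CPM, counts scaled to library size, with TMM factors, and 3 counts, the limit that a count of 0 allows, correspond to between 0.155 and 0.185 CPM. With 1 library on each side there is no spread between cultures to set a difference against, no test and no p-value. Intervals and this limit cover counting error only, and reads that carry no molecular identifier need not come from separate molecules. Salt and time differ together between the 2 cultures and cannot be told apart. In RNA of whole mycelium, fewer cells of a kind and less RNA per cell cannot be told apart either. Gene IDs come without names in the files, and 0 of the 8441 matched a RefSeq table of 11428 genes of another strain of the species. Roles, markers of spores or fruiting bodies and sequences could therefore not be attached to any ID. The 2 genes furthest apart on each side are given by ID and the others by class. Gene lengths are not known, so CPM values are compared between libraries and not between genes.

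The widest differences between 4 M NaCl at 84 h and 3 M NaCl at 36 h were mostly of genes with a lower level in 4 M. In 4 M at 84 h 110 genes were 4-fold lower, which is 1.86% of the genes compared, and 30 genes (0.508%) were 4-fold higher. An excess of lower genes appeared only among large differences. At 2-fold the sides were nearly even, with 318 genes lower and 307 higher. These counts include the genes 4-fold apart, so that between 2-fold and 4-fold more genes were higher than lower. At 8-fold 38 were lower and 5 higher, and at 16-fold 14 were lower and 1 higher. Most transcripts were close, since 89.4% of genes were within 2-fold and the central 90% of log2 fold changes ran from -1.07 to 1.02 around a median of 0.05. Scaling by total counts in place of TMM moved this median by 0.15 towards 4 M and gave 91 lower and 38 higher genes.

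**Figure D1:**
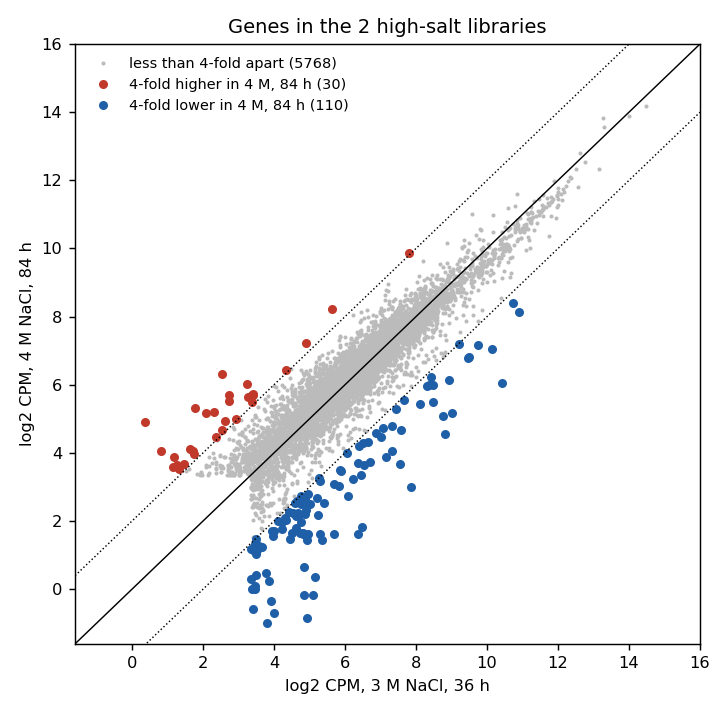
Each point is 1 of the 5908 genes compared, at its log2 CPM in 3 M NaCl at 36 h (horizontal) and in 4 M NaCl at 84 h (vertical); the solid line marks equal levels and the dotted lines 4-fold differences. The 110 lower genes (blue) reach further from the diagonal than the 30 higher genes (red).

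The lower genes also carried more of the transcript pool. They took 1.58% of all counts in 3 M at 36 h and 0.251% in 4 M at 84 h. In the other 4 libraries their share ran from 1.97% (1 M, 84 h) to 4.74% (1 M, 36 h), so that the 2 libraries of the pair were lowest for this group, and 3 M at 84 h, at 3.00%, was not. The 30 higher genes took 0.0419% in 3 M at 36 h and 0.233% in 4 M at 84 h. For them the highest share was in 4 M, followed by 1 M at 84 h (0.187%) and 1 M at 36 h (0.143%). A single gene gave 16755 of the 42030 counts in 4 M, and another gave 9349 of the 33884 in 1 M at 84 h. The order of these sums thus leans on few genes, and a share in 4 M above that in 3 M at 36 h follows from the choice. Among the 347 genes with a mean above 500 CPM over the 6 libraries, 16 (4.61%) were lower and 0 were higher. Among the 737 genes with a mean of up to 20 CPM, 26 (3.53%) were lower and 17 (2.31%) higher.

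The genes with the most reads were largely shared. Of the 100 with the highest counts in each library 88 were the same, and of the 112 in either list 1 belonged to the 140. Even so, 97 of these 112 were below 0 in log2 fold change, with a median of -0.38 and a range from -2.74 to 1.43, and the median was -0.24 with scaling by total counts. The 100 leading genes took 29.0% of counts in 4 M at 84 h and 31.9% in 3 M at 36 h.

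Counting error was small beside these differences. All 110 lower and all 30 higher genes had an exact 95% interval of the ratio wholly beyond 2-fold, and 83 and 19 of them wholly beyond 4-fold. The result at 2-fold follows from the rule, since a gene at 10 CPM and 4-fold apart already has enough counts for it. None of the 140 was without reads in either library of the pair, and 38 of the lower and 8 of the higher genes reached 10 CPM in both. The 4-fold line itself fell in a continuous range of values. The last genes inside it had log2 fold changes of 2.05 and -2.01, and the first genes outside had 1.98 and -1.997. The last higher gene inside was at 933 CPM in 4 M at 84 h and 225 CPM in 3 M at 36 h, and the first outside at 88.4 and 22.3 CPM.

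The gene furthest above in 4 M at 84 h, AG05102.1, was present in the more saline cultures at the late time. It had 29.7 CPM in 4 M and 31.2 CPM in 3 M at 84 h, but 1.17 CPM in 3 M at 36 h. In 1 M it had 0.405 CPM at 36 h and 0.112 CPM at 84 h, from 7 and 2 counts, and in 0 M at 84 h it had 0 counts, which allows up to 0.173 CPM. The levels in 3 M and 4 M at 84 h were thus far above the other 4 libraries, including 3 M at 36 h. Within the pair its log2 fold change was 4.53 (exact interval 4.00 to 5.405). The next gene, AG04318.1, was by far highest in the 4 M library, with 3 M at 36 h next. It had 79.7 CPM there, 5.74 CPM in 3 M at 36 h, 2.89 CPM in 1 M at 36 h, and 0.347, 0.562 and 1.81 CPM in 0 M, 1 M and 3 M at 84 h. Its log2 fold change within the pair was 3.77 (3.49 to 4.11).

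On the other side, AG04964.1 was highest at the early time. It had 30.6 CPM in 3 M and 27.5 CPM in 1 M at 36 h, and at 84 h 16.3 CPM in 1 M, 1.45 CPM in 0 M, 1.24 CPM in 3 M and 0.445 CPM (8 counts) in 4 M. All 4 libraries at 84 h lay below both at 36 h, without an order by salt, since 1 M was above 0 M. Its log2 fold change within the pair was -5.78 (-7.32 to -5.11). AG08267.1 was lower at each higher salt concentration among the late cultures, at 99 CPM in 0 M, 9.89 CPM in 1 M, 1.71 CPM in 3 M and 0.779 CPM (14 counts) in 4 M. At 36 h it had 28.5 CPM in 1 M and 34.3 CPM in 3 M, so the salt order of 84 h did not hold between these. Its log2 fold change within the pair was -5.27 (-6.34 to -4.70). Each of the 4 genes thus had a different pattern across the series.

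**Figure D2:**
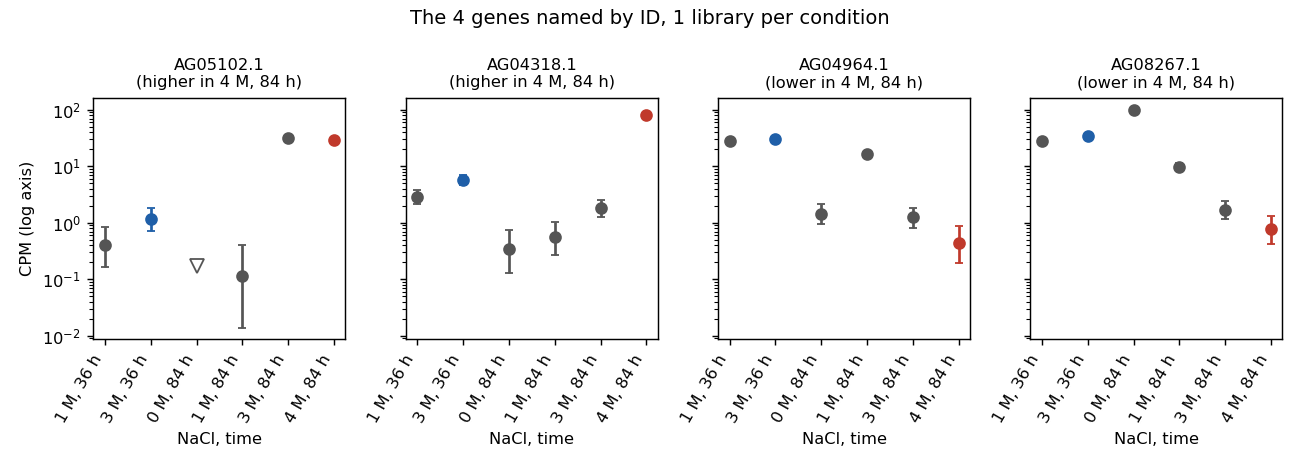
CPM on a log axis in each of the 6 libraries for the 2 genes furthest apart on each side between 4 M at 84 h (red) and 3 M at 36 h (blue), with the other libraries in grey. Bars are exact 95% Poisson intervals for counting error, and the open triangle marks a library with 0 counts at the limit of 0.173 CPM; AG05102.1 is as high in 3 M at 84 h as in 4 M, while AG04318.1 is by far highest in 4 M.

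Set against the median of the other 4 libraries, the 110 lower genes were low in 4 M and spread on both sides in 3 M at 36 h. In 4 M at 84 h, 104 of the 110 lay below that median and 84 lay 4-fold below it, with a median log2 difference of -3.30. In 3 M at 36 h, 63 lay below it and 47 above, with a median of -0.29, a range from -4.46 to 5.10, and 18 lay 4-fold below. The 110 were chosen for a 4 M level far below that of 3 M at 36 h, which bears on these counts. No share over all genes was set beside them. The 4 M library was the lowest of all 6 for 81 of the 110 genes (73.6%). Of all genes compared that were lower in 4 M than in 3 M at 36 h by any amount, 31.5% had the same place. That background lacks the wide gap for which the 110 were chosen. The 30 higher genes were less uniform. The 4 M library was above the median of the other 4 for 26 of them, with a median log2 difference of 1.58 over the 30, and the 3 M library at 36 h was above it for 13 and below it for 17. These 30 were chosen for a high 4 M level, and their counts also have no share over all genes beside them.

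**Figure D3:**
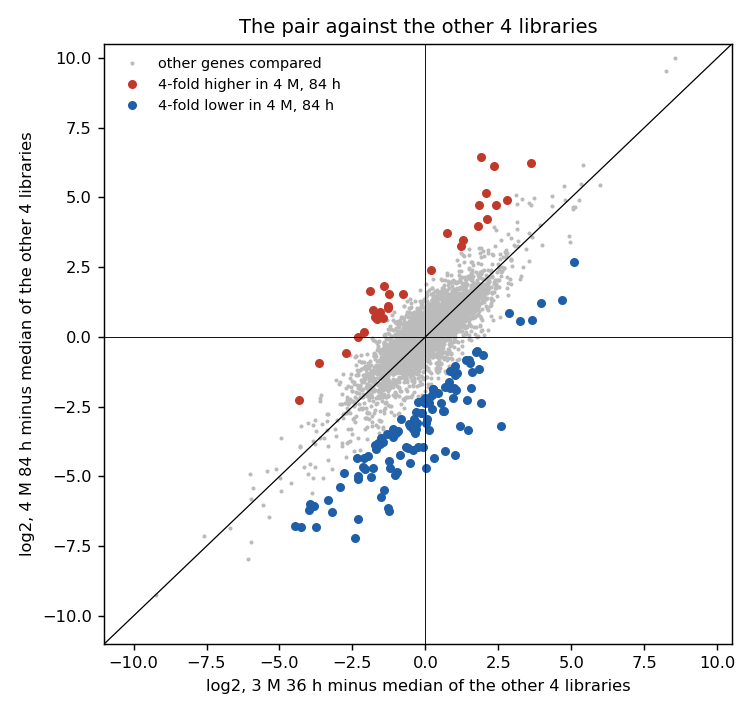
Each point is a gene, at its log2 level in 3 M at 36 h (horizontal) and in 4 M at 84 h (vertical) minus the median of the other 4 libraries; the diagonal marks equal levels in the pair. Of the lower genes (blue) 104 of 110 lie below 0 on the vertical axis, but on the horizontal axis they spread over both sides, with 63 below 0 and 47 above. The lower genes were chosen for a 4 M level far below that of 3 M at 36 h, which bears on these counts.

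Each of the other 4 libraries was also set against either side of the pair, beside the share of all genes compared with the same sign. For the 110 lower genes, the level was at or above that of 3 M at 36 h for 74 genes in 1 M at 36 h (67.3%, beside 37.9%) and for 70 in 0 M (63.6%, beside 35.9%). In 3 M and 1 M at 84 h this held for 56 (50.9%, beside 30.4%) and 49 (44.5%, beside 30.7%). At or below the 4 M level were 5 genes in 0 M, 7 in 1 M at 36 h, 16 in 1 M at 84 h and 17 in 3 M at 84 h, where the shares of all genes were 47.4%, 44.7%, 56.1% and 54.7%. The 110 were chosen for a wide gap below 3 M at 36 h, which bears on these shares. For the 30 higher genes, the 4 M level was reached or passed by 13 in 1 M at 84 h (43.3%, beside 39.1%) and 9 in 1 M at 36 h (30.0%, beside 26.3%), both near the background. In 3 M at 84 h it was reached by 5 (16.7%, beside 36.8%) and in 0 M by 2 (6.67%, beside 29.6%).

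The 110 lower genes fell into 3 classes by where the other 4 libraries lay. For 44 genes the other 4 were all at, within 2-fold of, or above the level of 3 M at 36 h, which is 40.0% beside 56.9% of all genes compared that were lower in 4 M. For 5 genes the other 4 were all at, within 2-fold of, or below the level of 4 M, which is 4.55% beside 70.5%. For the remaining 61 the other libraries were spread across the gap. Genes of the background with a small difference within the pair fall more easily within 2-fold of either side.

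Among the 44, a group of 28 had all other 4 libraries above both of the pair, which places 4 M lowest and 3 M at 36 h next. They make up 25.5% of the 110, beside 17.9% of all genes compared with a lower value in 4 M. The median level of the 28 genes was 270 CPM in 1 M at 36 h, and 223, 214 and 253 CPM in 0 M, 1 M and 3 M at 84 h, against 29.1 CPM in 3 M at 36 h and 5.32 CPM in 4 M. The median in 3 M at 84 h was among those of the 0 M and 1 M libraries. That these 4 libraries lay above the pair follows from the choice of the 28 genes. The member of this group with the most reads had 5657 CPM in 1 M at 36 h, and 2073, 1232 and 4237 CPM in 0 M, 1 M and 3 M at 84 h. It had 590 CPM in 3 M at 36 h and 147 CPM in 4 M, a log2 fold change of -2.01 (-2.07 to -1.95). In the other 16 of the 44 genes, 3 M at 36 h was at most 2-fold above the lowest of the other 4. The one with the most reads had 852 CPM in 3 M at 36 h, 1581 CPM in 1 M at 36 h, 2180, 554 and 982 CPM in 0 M, 1 M and 3 M at 84 h, and 145 CPM in 4 M. The 4 M library alone was low for this gene.

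In 20 of the 110 lower genes, 3 M at 36 h was the highest of the 6 libraries, 18.2% beside 48.6% of all genes compared with a lower value in 4 M. With scaling by total counts 13 of 91 lower genes had this place. In the 5 genes with the other 4 libraries on the side of 4 M, 2 of which had them all below both of the pair, the median level there was 31.0 CPM, and in the other 5 libraries the medians ran from 0.518 to 4.51 CPM. The one with the most reads had 1897 CPM in 3 M at 36 h and 283 CPM in 4 M at 84 h. It had 159 CPM in 1 M at 36 h and 45.7, 126 and 117 CPM in 0 M, 1 M and 3 M at 84 h. Its 3 M level at 36 h was thus above all others, and 4 M was the second highest.

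Among the 61 genes with the other libraries spread across the gap, the member with the most reads had 2041 CPM in 1 M and 1137 CPM in 3 M at 36 h. At 84 h it had 1205 CPM in 0 M and 1788 CPM in 3 M, but 112 CPM in 1 M and 133 CPM in 4 M. The 1 M and 4 M libraries at 84 h were the low ones for this gene. Another gene with a high count was low in the later salted cultures instead. At 36 h it had 1697 CPM in 1 M NaCl and 1714 CPM in 3 M, and at 84 h 1370 CPM in 0 M, against 265, 239 and 339 CPM in 1 M, 3 M and 4 M.

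**Figure D4:**
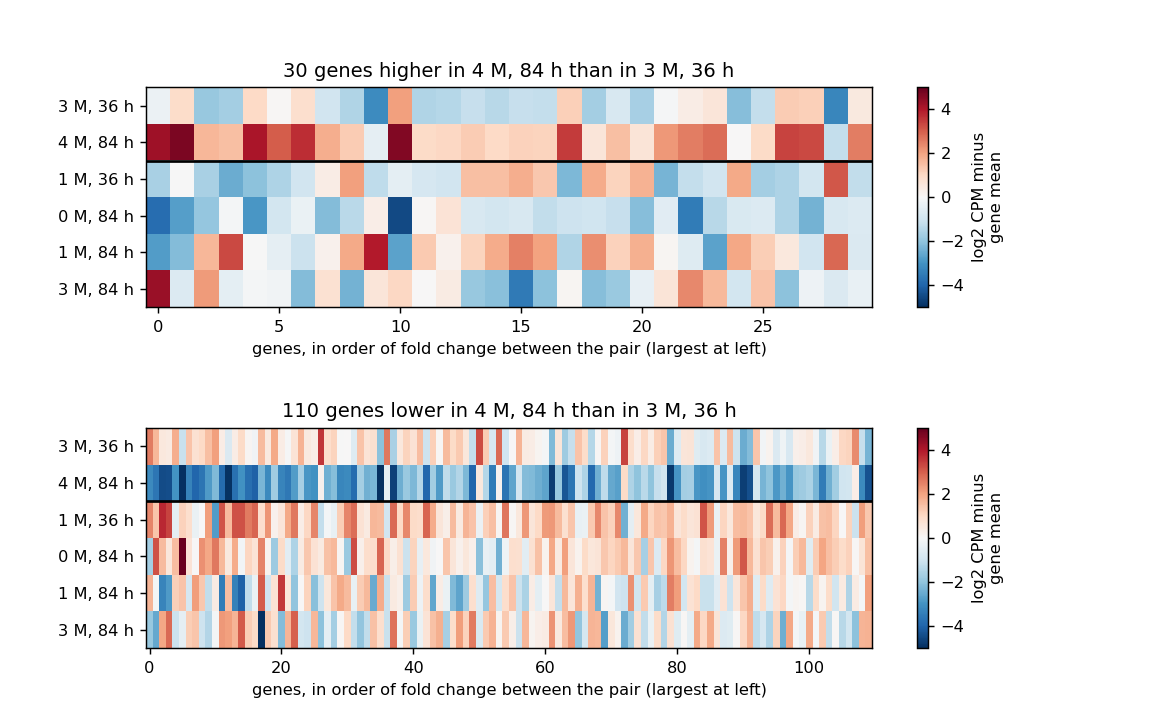
Colour gives the log2 CPM of each gene minus its mean over the 6 libraries, with genes as columns and libraries as rows, the pair above the black line and the other 4 below it. For the 110 lower genes the 4 M row is almost uniformly blue, which follows in part from their choice. In both groups the rows of the other 4 libraries vary from gene to gene. They were spread across the gap for 61 of the 110 lower genes (55.5%) and 17 of the 30 higher genes (56.7%).

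The 30 higher genes divided into 10 with the other 4 libraries within 2-fold of or below 3 M at 36 h, 3 with the other 4 within 2-fold of or above 4 M, and 17 with them spread across the gap. The class of 10 is 33.3% of the 30, beside 72.6% of all genes compared that were higher in 4 M. The class of 3 is 10%, beside 63.9%. Background genes with a small difference within the pair again fall more easily into either class. In 9 of the 10 (30.0% of the 30, beside 25.3% of all genes compared that were higher in 4 M) all other 4 lay below both of the pair, so that 3 M at 36 h was above them too. In 15 of the 30 the 4 M library was the highest of the 6, beside 47.8% of all genes compared with a higher value in 4 M. In 5 (16.7%) 3 M at 36 h was the lowest of the 6, beside 33.1%, and scaling by total counts gave 8 of 38 higher genes. The 10 genes had a median of 65.9 CPM in 4 M, 8.42 CPM in 3 M at 36 h and between 1.88 and 5.41 CPM in the other 4. The one with the most reads was at 933 CPM in 4 M, 225 CPM in 3 M at 36 h, 66.7 CPM in 1 M at 36 h, and 98.3, 95.4 and 122 CPM in 0 M, 1 M and 3 M at 84 h. The pair was the highest for this gene, 4 M by far. Among the 3 genes with the other 4 on the side of 4 M, the one with the most reads had 7.47 CPM in 3 M at 36 h and 31.7 CPM in 4 M. It had 614 and 525 CPM in 1 M at 36 h and 84 h, 40.9 CPM in 0 M and 43.5 CPM in 3 M at 84 h, so the 1 M libraries were highest and the pair lowest.

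In 9 of the 30 higher genes both 1 M libraries and the 4 M library lay above 0 M and both 3 M libraries. This pattern follows neither salt nor time in order, and it was looked for after the values were seen. It holds for 30.0% of the higher genes, beside 3.08% of all genes compared with a higher value in 4 M than in 3 M at 36 h. The pattern includes 4 M above 3 M at 36 h, and the 30 were chosen for a wide gap there, which bears on this share. In 8 of the 9 genes the lowest of the 3 upper libraries was 2-fold above the highest of the lower ones. The median levels of the 9 genes were 83.4 CPM and 96.9 CPM in 1 M at 36 h and 84 h and 49.9 CPM in 4 M, against 10.7 CPM in 0 M, 9.38 CPM in 3 M at 36 h and 5.23 CPM in 3 M at 84 h. The one with the most reads had 123 and 170 CPM in 1 M at 36 h and 84 h and 51.7 CPM in 4 M. It had 16.6 CPM in 0 M, and 10.4 and 7.71 CPM in 3 M at 36 h and 84 h. Scaling by total counts put 14 genes in this pattern, of the 38 higher genes found with that scaling. The labels give no batch, and a part of library preparation in the pattern was not tested.

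Few of the 140 genes set all late cultures apart from all early ones. In 7 of the 110 lower genes (6.36%) all 4 libraries at 84 h lay below both at 36 h, beside 10.9% of all genes compared that were lower in 4 M. In 5 of the 30 higher genes (16.7%) all 4 lay above both, beside 13.2%. These shares are near the background. Median levels of the 7 lower genes were 63.1 and 32.3 CPM in 1 M and 3 M at 36 h, and 18.96, 9.16, 30.0 and 5.57 CPM in 0 M, 1 M, 3 M and 4 M at 84 h. Of the 5 higher genes, the one with the most reads had 8.34 and 2.16 CPM in 1 M and 3 M at 36 h, and 25.4, 313, 31.1 and 14.6 CPM in 0 M, 1 M, 3 M and 4 M at 84 h. Its 4 M level was the lowest of the late cultures.

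Comparisons among the other 4 libraries share no library with the pair and separate time from salt. In 1 M NaCl, the level at 84 h was 4-fold below that at 36 h for 36 of the 110 lower genes (32.7%) and 4-fold above it for 5 (4.55%). Of all 6391 genes compared there, 2.88% were lower and 3.83% higher by as much. The median log2 fold change of the 110 was -0.90, against 0.02 over all genes, and 75 were below 0. Of the 110, 100 reached 10 CPM in that comparison and could be counted, and in the salt comparisons that follow between 97 and 102 did. Of the 30 higher genes, 5 (16.7%) were 4-fold higher with time in 1 M and 0 lower, with a median of 0.49 and 17 reaching 10 CPM.

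The late cultures differed in salt at the same time point. In 3 M against 0 M at 84 h, 32 of the 110 lower genes (29.1%) were 4-fold down and 14 (12.7%) 4-fold up, where 3.22% and 2.44% of all 6405 genes were. The median of the 110 was -0.55, against -0.01 over all genes, with 60 below 0 and 50 above. The lists of genes lower with time in 1 M and lower with salt in 3 M come from comparisons with no library in common. Of the 110, 5 genes were in both, which is 13.9% of the 36 and 15.6% of the 32. Over the 6164 genes compared in both, 21 genes were shared, 13.2% of 159 and 12.7% of 165. These shares are alike, but the lists take up far more of the 110 (32.7% and 29.1%) than of all genes. In the separate comparisons they took up 2.88% of 6391 and 3.22% of 6405 genes, sets larger than the 6164 compared in both. Like shares therefore do not mean a like overlap, and the overlap was not tested against the sizes of the lists. The other 47 of the 110 were in neither. Of these 47, 26 were among the 44 genes whose other 4 libraries lay on the side of 3 M at 36 h, and 18 of the 26 had all other 4 above both of the pair. Genes 4-fold down in neither comparison more easily have all 4 libraries on 1 side, and no share over all genes was set beside these counts.

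The 36 genes lower with time in 1 M had medians of 258 CPM in 1 M at 36 h and 14.3 CPM in 1 M at 84 h, by which they were chosen. Their medians were 57.3 CPM in 3 M at 36 h, and 70.2, 108 and 8.02 CPM in 0 M, 3 M and 4 M at 84 h. The low levels in 1 M and 4 M at 84 h follow from the choice of these genes, the first from the time comparison and the second from the pair. The 32 genes below their 0 M level in 3 M at 84 h had medians of 85.6 and 12.2 CPM in those 2 libraries. They had 50.6 and 72.6 CPM in 1 M at 36 h and 84 h, 30.4 CPM in 3 M at 36 h and 5.48 CPM in 4 M. The one with the most reads had 2036 and 1379 CPM in 1 M and 3 M at 36 h and 1830 CPM in 0 M at 84 h, but 204, 177 and 66.8 CPM in 1 M, 3 M and 4 M at 84 h.

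Comparisons with the 1 M library at 84 h gave more mixed values. In 1 M against 0 M at 84 h, 23 of the 110 (20.9%) were 4-fold down and 6 (5.45%) 4-fold up, where 2.83% and 4.56% of all 6429 genes were. In the same comparison 13 of the 30 higher genes (43.3%) were 4-fold up and 0 down, with a median of 2.18. In 3 M against 1 M at 84 h, 25 of the 110 (22.7%) were 4-fold up and 17 down, where 2.56% and 4.60% of all 6415 genes were, and the median was -0.03. Of these 25, 24 were among the 36 genes lower with time in 1 M, and both comparisons use the same 1 M library at 84 h, so that they are not separate evidence. Of the 30 higher genes 12 were 4-fold down in this comparison and 3 up. Most of these 12 were also among the 13 genes 4-fold up in 1 M against 0 M, which uses the same 1 M library. Of the 13, 8 were among the 9 genes with both 1 M libraries and 4 M above the rest. These counts are therefore not separate evidence either. In 3 M against 0 M, 6 of the 30 were 4-fold up and 1 down. In the 4 comparisons between 16 and 21 of the 30 reached 10 CPM, so these counts rest on few genes. The backgrounds in these comparisons hold all genes compared and not genes of like variability.

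**Figure D5:**
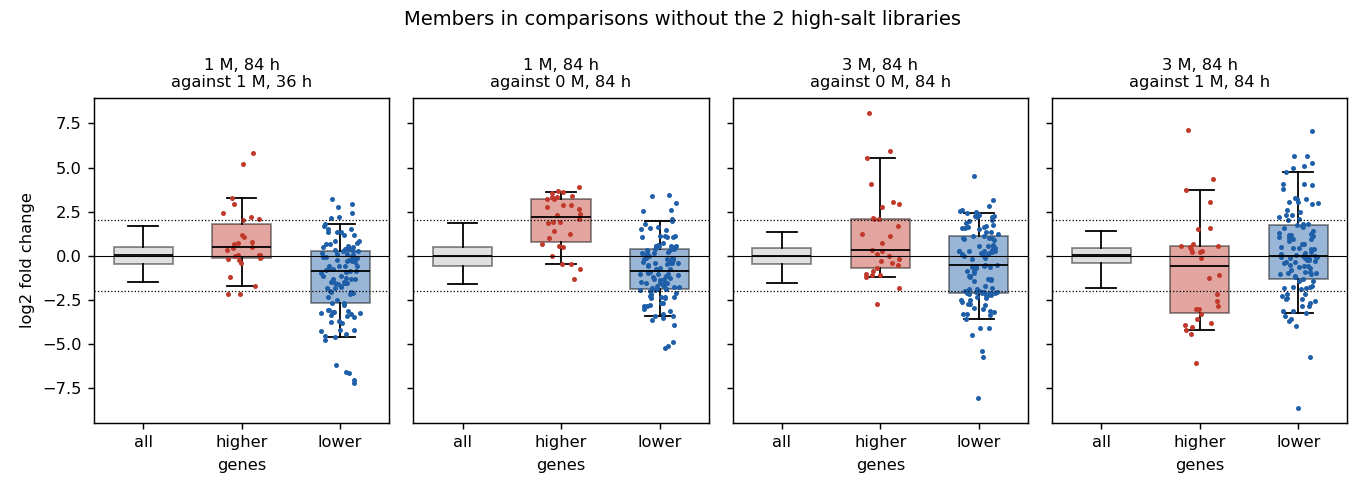
Log2 fold changes in the 4 comparisons among the other libraries, for all genes compared (grey) and for the 30 higher (red) and 110 lower (blue) genes of the pair; boxes show the median and quartiles, whiskers the 5th and 95th percentiles, points single genes and dotted lines 4-fold. The lower genes have medians of -0.90 with time in 1 M and -0.55 in 3 M against 0 M, and the higher genes 2.18 in 1 M against 0 M.

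Some of the lower genes had neighbouring ID numbers. Of the 110, 29 (26.4%) had an ID next to that of another lower gene, in 13 runs of which 11 held 2 genes and the longest held 4. Over all genes compared, 2.29% had an ID next to one of the 110. Of the 30 higher genes 2 (6.67%) were neighbours, beside 0.643%. ID order is a label here, and no annotation tied it to position. Genes that overlap or are near-identical copies could not be recognised, and their counts are uncertain. In the run of 4, all members were highest in 3 M at 36 h, at 15.6 to 37.8 CPM, and with scaling by total counts 3 of the 4 were. They had 2.84 to 4.45 CPM in 4 M, 0.174 to 9.09 CPM in 1 M at 36 h, and 3.47 to 19.5, 0.618 to 5.96 and 0.155 to 2.74 CPM in 0 M, 1 M and 3 M at 84 h.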

How the data were processed

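Per the labels' protocols, mycelium was filtered and frozen, RNA was extracted with TRIzol and cleaned on RNeasy columns, and libraries followed standard Illumina methods. Each deposited file lists raw counts by gene ID for 1 library, with no normalization. The submitters' processing notes name TopHat2 2.0.8b and HTSeq 0.5.4p2. Not given in the sources used here are genome build, annotation, strand setting and filters. The smallest listed count is 1, and an unlisted gene was taken as 0. Every line has a gene ID.

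TMM factors over all 6 libraries came from edgeR 4.0.16 (R 4.3.3) and alternative size factors from DESeq2 1.42.0. Log2 fold changes had 2 prior counts added, in proportion to library size. A gene was compared where either library reached 10 CPM. No count test was run, as no condition has a replicate, and genes were counted past 4-fold. Exact 95% intervals are Clopper-Pearson on the 2 counts, without prior (SciPy 1.17.1). Places in the order of libraries used log2 CPM with the prior, with a 2-fold margin for the 3 classes. Genes printed by ID are the 2 furthest on each side whose interval excludes 2-fold; other examples are the class member with the highest mean CPM, except 1 chosen as the highest of the genes with 3 M at 36 h as their highest library. Gene lists and markers of osmotic stress, trehalose, cation transport, heat shock, oxidative stress, conidiation and sexual development gave no result, since no ID could be named. The members, classes and lists were chosen with earlier results of these data known.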

Additional observations from a re-analysis of the deposited data

How the results depend on the processing

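The counts of 110 lower and 30 higher genes stayed within 1.5 times with DESeq2 size factors (117 and 29), total counts (91 and 38), TMM of the pair alone (107 and 30), and prior counts of 0.5 (111 and 30) and 10 (102 and 30). Without a filter on low values they were 213 and 46, at a minimum of 50 CPM 46 and 10, and with the exact interval wholly beyond 4-fold 83 and 19. The lower genes were between 70.5% and 82.2% of the genes apart in all 8 alternatives. Places moved with the number of genes: without a filter, 97 lower genes had the other 4 libraries on the 3 M side and 168 had 4 M lowest, and at 50 CPM these were 17 and 32. At 50 CPM, 6 higher genes had the other 4 on the 3 M side and 6 had 4 M highest. With no 2-fold margin, 28 lower genes had the other 4 on the 3 M side. The cause was not tested beyond the number of genes that each filter admits. The log2 fold changes of the 4 genes given by ID kept their direction and stayed within their counting intervals with DESeq2 size factors, total counts and a prior count of 0.5. No paired analysis was possible because each condition has 1 library. The spread between cultures is unknown, and genes near 10 CPM carry the widest counting error.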

Other observations

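The pattern with both 1 M libraries and the 4 M library above 0 M and both 3 M libraries was counted over all 5908 genes compared, after the values of the 140 genes were seen. It held for 97 genes (1.64%), and the reverse order held for 67 (1.13%). With a gap of at least 2-fold between the 3 upper and the 3 lower libraries 19 genes (0.322%) had it, of which 8 were among the 30 genes higher in 4 M at 84 h than in 3 M at 36 h. That gap includes the one between 4 M and 3 M at 36 h, by which the 30 were chosen. The number among the 30 therefore follows in part from the choice.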
